A study of Mus musculus with 2 samples.

Results

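Lysosomal gene expression was examined in 4T1, a mammary carcinoma cell line of the mouse, through 40 genes in 7 roles. These are 7 membrane proteins, 10 proteases, 10 glycosidases, 2 sulfatases, 5 lipid hydrolases, 3 activators and cofactors, and the transcription factors Tfeb, Tfe3 and Mitf. They were taken by symbol, and all 40 had a row among the 51912 rows with an Ensembl identifier. Of the 40 genes, 39 were detected, meaning a mean of at least 1 TPM over both libraries. TPM is a transcript abundance corrected for transcript length and scaled to the same total in each library. The gene below this level was Ctsf, a cysteine cathepsin, listed at 0 TPM in co-culture and at 0.02 TPM in the control.

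The study sequenced RNA of 4T1 cells that had spent 3 days in the lower chamber of a transwell with M2 macrophages above them, and of control 4T1 cells. No genetic change or drug is named in the labels for either group, and the labels do not describe an upper chamber for the control or how the macrophages were made. The title of the co-culture library writes 4T2, whereas its treatment label and its column in the deposited table write 4T1. Each group had 1 library, so no test between groups, standard error or p-value can be given, and each difference below describes these 2 libraries only.

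The lysosome is the acidic compartment in which cells break down proteins, glycans and lipids. Its soluble hydrolases are tagged with mannose 6-phosphate in the Golgi and carried there by receptors, and its limiting membrane holds heavily glycosylated proteins, transporters and channels. TFEB, TFE3 and MITF are related transcription factors. In fed cells mTORC1 holds TFEB, TFE3 and some forms of MITF in the cytoplasm, and on starvation or lysosomal damage they enter the nucleus and bind a short palindromic E-box, the core of the CLEAR element, in promoters of lysosomal genes.

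The promoters of the 3 genes with the largest differences are shown first. A link between these sequences and the ratios was not tested. Mcoln1 and Cd68 were the lowest relative to the control and Scarb2 was the highest. Each window runs 5′ to 3′ from 250 bases before to 50 bases after the annotated start (RefSeq, GRCm38.p6), and capitals mark the E-box core CACGTG, which reads the same on both strands.
Mcoln1, chr8:3500269-3500568, plus strand: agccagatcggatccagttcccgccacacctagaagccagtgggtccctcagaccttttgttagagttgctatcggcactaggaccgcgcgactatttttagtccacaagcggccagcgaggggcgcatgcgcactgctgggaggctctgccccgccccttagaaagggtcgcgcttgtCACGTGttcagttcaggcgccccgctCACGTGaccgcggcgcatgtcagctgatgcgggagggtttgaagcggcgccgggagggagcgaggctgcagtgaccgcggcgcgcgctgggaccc
Cd68, chr11:69666121-69666420, minus strand: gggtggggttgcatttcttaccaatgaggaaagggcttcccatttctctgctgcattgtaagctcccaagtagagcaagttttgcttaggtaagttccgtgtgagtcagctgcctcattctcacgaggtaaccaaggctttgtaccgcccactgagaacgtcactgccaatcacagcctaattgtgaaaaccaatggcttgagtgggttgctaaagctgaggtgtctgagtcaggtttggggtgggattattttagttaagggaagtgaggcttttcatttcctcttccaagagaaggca
Scarb2, chr5:92505608-92505907, minus strand: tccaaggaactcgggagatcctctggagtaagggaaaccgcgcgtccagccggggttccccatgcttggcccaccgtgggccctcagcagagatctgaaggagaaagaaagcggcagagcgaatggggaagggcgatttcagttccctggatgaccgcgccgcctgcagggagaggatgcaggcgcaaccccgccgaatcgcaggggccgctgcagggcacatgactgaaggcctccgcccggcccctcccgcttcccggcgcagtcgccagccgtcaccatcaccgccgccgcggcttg
Mcoln1 held 2 cores in its window, and the windows of Cd68 and Scarb2 held none. The annotated span of Scarb2 begins at 92506833 on the minus strand, outside its window, and the bases around that position were not searched.

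Windows were matched for 37 of the 40 genes (all but Ctsb, Ctsh and Asah1), 46 windows in all. The core occurred in 13 of 46 windows (28.3%), against 7.15% of all 32851 windows of the table and 10.2% of the 10822 windows of detected genes. By gene, 13 of 37 members (35.1%) had it in at least 1 window, against 8.09% of all genes with a window and 12.2% of detected ones. The 13 include Ctsf, which was not detected. A stricter form, the core with GT directly before it or AC directly after it, occurred in 10 of 46 windows (21.7%), against 2.25% of all windows and 4.27% of those of detected genes. A match is a description of the letters and is not a binding site. The matches nearest to the start of the other 9 genes with the stricter form are shown with 12 bases on each side, to let the flanks be compared.
Lamp1, chr8:13159121-13159150, plus strand: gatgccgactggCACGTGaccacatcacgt
Cln3, chr7:126583340-126583369, minus strand: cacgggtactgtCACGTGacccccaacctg
Ctsa, chr2:164833766-164833795, plus strand: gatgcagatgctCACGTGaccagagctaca
Ctsd, chr7:142387908-142387937, minus strand: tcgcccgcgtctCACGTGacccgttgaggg
Lgmn, chr12:102439124-102439153, minus strand: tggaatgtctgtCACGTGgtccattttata
Glb1, chr9:114401018-114401047, plus strand: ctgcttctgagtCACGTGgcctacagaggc
Naglu, chr11:101070009-101070038, plus strand: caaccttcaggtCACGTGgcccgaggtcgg
Gla, chrX:134601182-134601211, minus strand: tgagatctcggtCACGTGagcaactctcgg
Arsa, chr15:89477423-89477452, minus strand: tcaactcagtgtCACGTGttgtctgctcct
Only Cln3 had both flanks at 1 core.

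**Figure D1:**
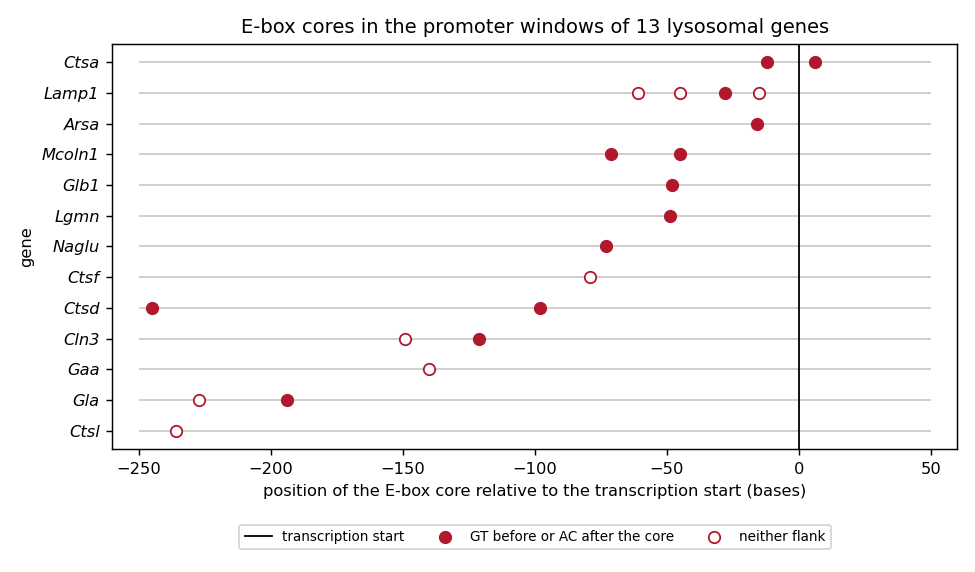
Position of each CACGTG core, in bases from the transcription start (first transcribed base 1), in the promoter windows of the 13 lysosomal genes that hold it; filled points have GT before or AC after the core and open points have neither. Of 21 cores, 20 lay upstream of the start, and Lamp1 held 4 of them between 61 and 15 bases before it.

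The 3 factors themselves had 8 windows, none with the core, which 10.2% of the windows of detected genes held. So few windows cannot show a difference from that share. The 100 bases around the first listed start of each are given for comparison with the hydrolase promoters above (no capitals, as no core is present).
Tfeb, chr17:47736987-47737086, plus strand: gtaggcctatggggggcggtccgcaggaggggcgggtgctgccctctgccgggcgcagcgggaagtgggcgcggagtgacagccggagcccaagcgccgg
Tfe3, chrX:7762611-7762710, plus strand: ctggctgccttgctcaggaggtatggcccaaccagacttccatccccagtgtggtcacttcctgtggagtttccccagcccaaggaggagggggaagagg
Mitf, chr6:97807008-97807107, plus strand: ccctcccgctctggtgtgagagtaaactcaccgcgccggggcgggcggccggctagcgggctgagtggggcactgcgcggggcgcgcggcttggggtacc

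Across the 39 detected genes the co-culture and control libraries were close to each other. The log2 ratio, log2((co-culture TPM + 1)/(control TPM + 1)), had a median of -0.01, against 0.17 for all 11258 detected genes. Its 25th and 75th percentiles were -0.18 and 0.19, against -0.14 and 0.48 for all detected genes. Of the 39 genes, 19 had higher values in co-culture and 20 had lower values, whereas the values of 64.5% of all detected genes were higher and those of 35.4% were lower. No member was at least 2-fold higher (background 4.95%), and 2 members were at least 2-fold lower, which is 5.13% of the 39 against a background of 2.14%. At a 1.5-fold threshold 1 member was higher (background 18.6%) and 2 were lower (background 6.37%). The other 36 members (92.3%) were within 1.5-fold, as were 8442 of the 11258 detected genes and 78.9% of the genes that averaged 10 TPM or more.

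The size of this median depended on how the libraries were scaled. Most genes lay slightly above 0 with the deposited scaling, and rescaling co-culture to a median ratio of 1 over abundant genes, which removes a shift of 0.12, gave a median of -0.12 for the members and 0.06 for all genes. A trimmed mean of ratios (TMM), a shift of 0.22, gave -0.22 for the members and -0.03 for all genes. With each of these scalings the members' median lay below that of all detected genes by 0.18 to 0.19. Summed over the 40 genes, the lysosomal transcripts took 0.419% of the co-culture library and 0.44% of the control library. TPM keeps no depth, and in bulk RNA fewer cells expressing a gene and less RNA per cell cannot be told apart.

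**Figure D2:**
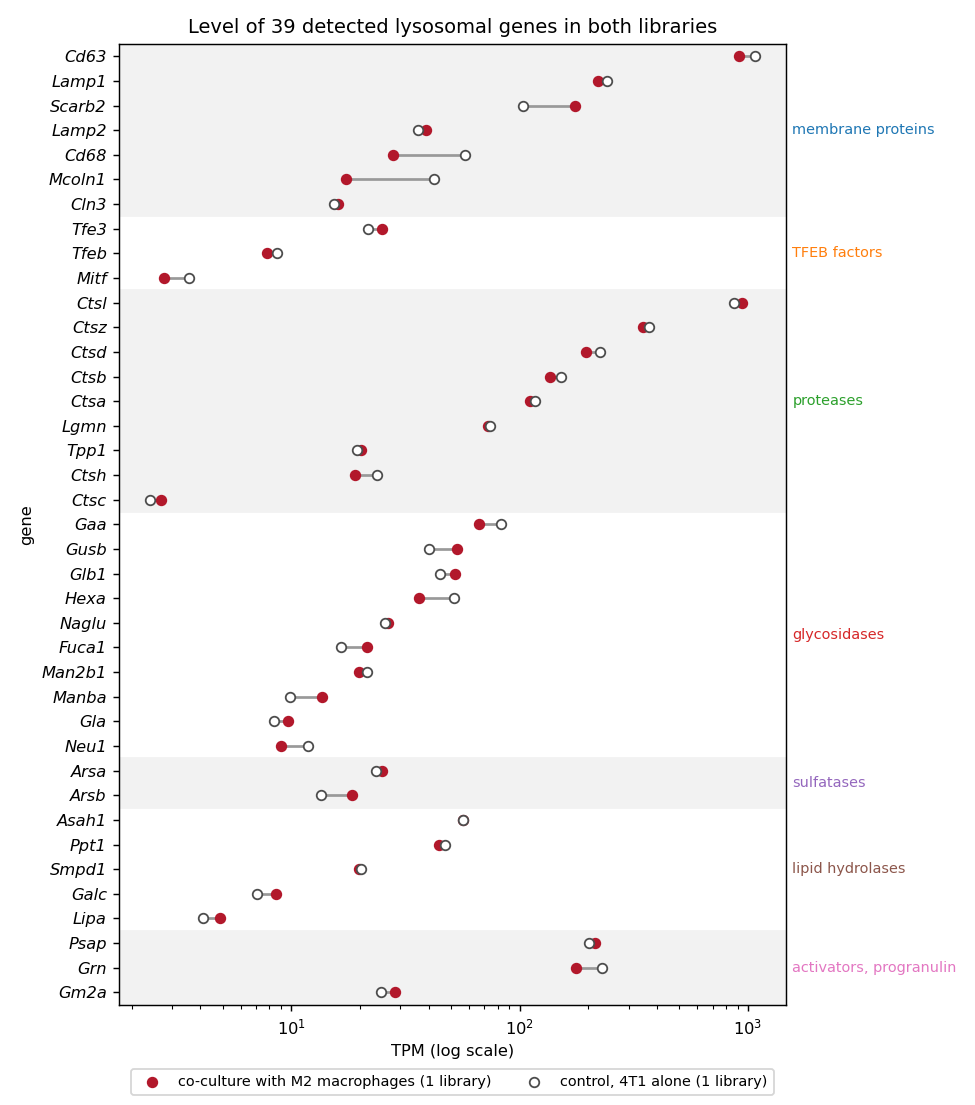
TPM on a log scale (horizontal) of the 39 detected lysosomal genes (vertical, grouped by role), with the co-culture library as filled red points and the control library as open points, 1 library each. Most pairs nearly coincide; the widest gaps are those of Mcoln1 (17.4 TPM in co-culture, 42.3 TPM in the control), Cd68 (27.8 TPM in co-culture, 57.7 TPM in the control) and Scarb2 (175 TPM in co-culture, 103 TPM in the control).

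Among the membrane proteins, 3 had higher (42.9%, against the background of 64.5%) and 4 had lower values. With the TMM scaling 1 was higher (47.1% of all detected genes were). With trends on transcript length and GC content removed 4 were higher (65.8% of all genes were). The membrane proteins spanned the widest range of any role, -1.23 to 0.76. Mcoln1 encodes TRPML1, the cation channel that releases calcium from lysosomes. It (ENSMUSG00000004567, protein coding) maps to chromosome 8 (GRCm38), positions 3500457 to 3515232. There were 17.4 TPM of it in co-culture and 42.3 TPM in the control. The co-culture level was 41.1% of that of the control, a log2 ratio of -1.23, and 1.42% of detected genes had a lower ratio. It remained at least 2-fold lower in each of the 8 alternative settings, with ratios of -1.44 to -1.08. No other annotated gene overlaps it.

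Cd68 encodes a glycoprotein related to the LAMP proteins that is widely used as a macrophage marker. It (ENSMUSG00000018774) maps to chromosome 11, positions 69664213 to 69666153. Its level was 27.8 TPM in co-culture and 57.7 TPM in the control, 48.2% of the control level. Its log2 ratio of -1.03 was just past the 2-fold line. With a pseudocount of 5 the ratio was -0.93, and with trends on transcript length and GC content removed it was -0.81, so the 2-fold call did not hold there. The longest transcript of Cd68 has 1230 bases, against a median of 3172 for the detected members.

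Because Cd68 is used as a macrophage marker, other such markers are given beside it. Of 24 macrophage and M2 markers, 1 was detected (Cd14, with 12.4 TPM in co-culture and 8.87 TPM in the control), and 14 were listed at 0 in both libraries, among them Adgre1, Ptprc, Tyrobp, Fcer1g, Itgam and Arg1. None of the undetected markers exceeded 0.27 TPM in co-culture or 0.05 TPM in the control. The 24 genes summed to 12.9 TPM in co-culture and 9.02 TPM in the control, and without Cd14 to 0.57 TPM in co-culture and 0.15 TPM in the control. Of 13 epithelial markers 7 were detected. Krt8 had 630 TPM in co-culture and 548 TPM in the control, Krt18 had 484 TPM in co-culture and 439 TPM in the control, and Krt7 had 18.3 TPM in co-culture and 15.9 TPM in the control. Krt19 had the largest ratio of the markers, 1.63, with 2.64 TPM in co-culture and 0.18 TPM in the control. For the junction genes the ratio was 0.78 for Tjp1, 0.72 for Cldn3 and 0.36 for Ocln. Among undetected markers Epcam and Cldn7 were listed at 0 in both libraries and Cdh1 had 0.01 TPM in co-culture and 0.04 TPM in the control.

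Scarb2 encodes LIMP-2, a membrane glycoprotein that also acts as a sorting receptor for a lysosomal hydrolase. It (ENSMUSG00000029426) maps to chromosome 5, positions 92441314 to 92506833. Its level was 175 TPM in co-culture and 103 TPM in the control. Its ratio of 0.76 was the highest of the 39 genes, and 10.7% of detected genes had a higher one. It was the only member at least 1.5-fold higher, and with the TMM scaling it was below that line, at a ratio of 0.54.

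The remaining membrane proteins were within 1.5-fold. Cd63, a tetraspanin of late endosomes and exosomes, was the most abundant member in the control and the next after Ctsl in co-culture, with 909 TPM in co-culture and 1077 TPM in the control. Lamp1, a major glycoprotein of the limiting membrane, had 221 TPM in co-culture and 241 TPM in the control. Lamp2, whose product also serves chaperone-mediated autophagy, had 38.99 TPM in co-culture and 35.87 TPM in the control. Cln3, which is mutated in a juvenile form of Batten disease, had 16.1 TPM in co-culture and 15.4 TPM in the control; its span overlaps Apobr on the opposite strand, which had 15.4 TPM in co-culture and 10.6 TPM in the control. The ratios of Lamp1, Lamp2 and Cln3 changed sign between processing settings.

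**Figure D3:**
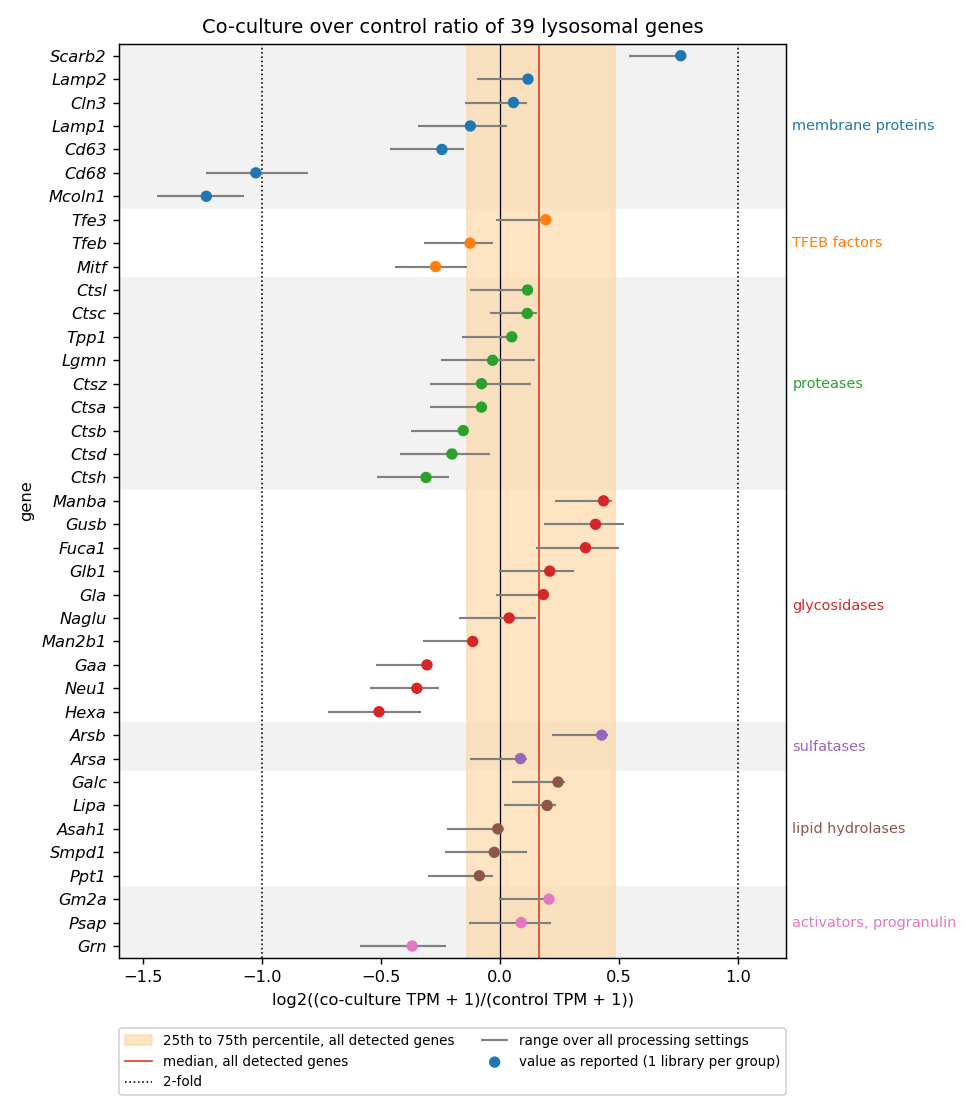
The log2 ratio of co-culture over control TPM (pseudocount 1) for the 39 detected genes, grouped by role and ordered within it; horizontal lines span the values over all processing settings, the shaded band is the 25th to 75th percentile of all 11258 detected genes and dotted lines mark 2-fold. Mcoln1 at -1.23 and Cd68 at -1.03 lie past the lower 2-fold line, and Scarb2 at 0.76 lies above the band.

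The TFEB family genes were detected at low to moderate levels and differed by less than 1.5-fold. Tfe3, on chromosome X from 7762560 to 7775202, was the most abundant, with 24.9 TPM in co-culture and 21.7 TPM in the control (ratio 0.19, and -0.02 with the TMM factor). Tfeb, on chromosome 17 from 47737030 to 47792419, had 7.84 TPM in co-culture and 8.65 TPM in the control (ratio -0.13). Mitf, on chromosome 6 from 97807052 to 98021349 and best known from melanocytes, had 2.77 TPM in co-culture and 3.55 TPM in the control (ratio -0.27). The order Tfe3, Tfeb, Mitf was the same in both libraries. These are transcript levels, and the activity of the factors, which is set mainly by where the proteins are in the cell, was not measured.

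Proteases were the role with the most transcript, and their sum was 1845 TPM in co-culture and 1850 TPM in the control. Of 9 detected proteases 3 had higher (33.3%, against the background of 64.5%) and 6 had lower values. Their median ratio was -0.08, with a range of -0.31 to 0.11. With the median ratio scaling 1 was higher and 8 lower (median -0.19), where 55.4% of all detected genes were higher. With the TMM scaling 0 were higher and 9 lower (median -0.30), where 47.1% of all detected genes were higher. Ctsl (cathepsin L, a cysteine endopeptidase) accounted for much of the sum, with 941 TPM in co-culture and 869 TPM in the control, a ratio of 0.11 that changed sign in other settings (lowest -0.12). Ctsz, a carboxypeptidase, had 348 TPM in co-culture and 367 TPM in the control. Ctsl, Cd63 and Ctsz were the 3 most abundant members in both libraries.

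The other cathepsins were also within 1.5-fold. Ctsd, the main aspartic protease of the lysosome, had 195 TPM in co-culture and 225 TPM in the control (ratio -0.20), and Ctsb had 136 TPM in co-culture and 152 TPM in the control (ratio -0.16). An annotated gene on the same strand, Gm49369, overlaps Ctsd over 6757 bases, but had only 0.35 TPM in co-culture and 0.76 TPM in the control. Ctsh, an aminopeptidase, had 19.0 TPM in co-culture and 23.8 TPM in the control, the lowest protease ratio at -0.31. Ctsc, which activates granule proteases of leukocytes, was near the lower end of detection at 2.68 TPM in co-culture and 2.40 TPM in the control.

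The proteases outside the cysteine and aspartic cathepsins were nearly equal between libraries. Lgmn (legumain, an asparaginyl endopeptidase) had 72.5 TPM in co-culture and 74.1 TPM in the control. Tpp1, a tripeptidyl peptidase, had 20.2 TPM in co-culture and 19.5 TPM in the control. Ctsa, a carboxypeptidase that also shields beta-galactosidase and neuraminidase in a complex, had 111 TPM in co-culture and 117 TPM in the control. The partners of that complex went different ways with the deposited scaling. Glb1 (beta-galactosidase) had 52.1 TPM in co-culture and 45.0 TPM in the control, and Neu1 (neuraminidase) had 9.05 TPM in co-culture and 11.8 TPM in the control. With the TMM scaling both ratios were below 0 (Glb1 -0.006, Neu1 -0.55). Glb1 overlaps Tmppe on the same strand over 6172 bases, and Tmppe had 3.42 TPM in co-culture and 2.01 TPM in the control.

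Glycosidases had the widest spread among the soluble enzymes, with a range of -0.51 to 0.43. Of the 10 glycosidases 6 were higher (60%, near the background of 64.5%) and 4 were lower. Their median of 0.11 became 0.00 with the median ratio scaling and -0.09 with the TMM factor. Hexa, the alpha subunit of beta-hexosaminidase A, which degrades GM2 ganglioside, was the lowest hydrolase, with 36.1 TPM in co-culture and 51.8 TPM in the control. Its ratio was -0.51, and 7.91% of detected genes had a lower one.

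Gaa, the enzyme of lysosomal glycogen breakdown, was also lower, with 66.5 TPM in co-culture and 82.5 TPM in the control (ratio -0.31). Manba (beta-mannosidase) had the highest ratio of the hydrolases, 0.43, with 13.6 TPM in co-culture and 9.83 TPM in the control. Gusb (beta-glucuronidase) had 53.4 TPM in co-culture and 40.2 TPM in the control. These 3 genes and Fuca1 (alpha-fucosidase, 21.6 TPM in co-culture and 16.6 TPM in the control) kept their sign in every setting. Differences were smaller for Gla (alpha-galactosidase A; 9.65 TPM in co-culture and 8.39 TPM in the control), Naglu (a heparan sulfate enzyme; 26.5 TPM in co-culture and 25.8 TPM in the control) and Man2b1 (alpha-mannosidase; 19.8 TPM in co-culture and 21.5 TPM in the control).

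Sulfatases were represented by Arsa and Arsb. Arsb, which acts on dermatan sulfate, had 18.5 TPM in co-culture and 13.5 TPM in the control (ratio 0.43). It overlaps a long noncoding gene on the opposite strand, Gm26527, with 8.80 TPM in co-culture and 5.00 TPM in the control. The gene spans share 2026 bases, and whether their exons overlap was not examined. Without known strandedness, any reads from the shared bases cannot be told apart. Arsa, which acts on sulfatide, had 25.1 TPM in co-culture and 23.6 TPM in the control.

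Lipid hydrolases differed little, with all 5 ratios between -0.09 and 0.24. Asah1 (acid ceramidase) had 56.2 TPM in co-culture and 56.6 TPM in the control, the ratio nearest to 0 of the 39. Smpd1 (acid sphingomyelinase) had 19.9 TPM in co-culture and 20.2 TPM in the control. Ppt1 (a thioesterase that removes palmitate from proteins) had 44.5 TPM in co-culture and 47.3 TPM in the control. Galc, which degrades galactosylceramide, and Lipa, the acid lipase that frees cholesterol from its esters, were low and slightly higher in co-culture: Galc had 8.54 TPM in co-culture and 7.06 TPM in the control, and Lipa had 4.86 TPM in co-culture and 4.11 TPM in the control.

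Of the activators and cofactors, Psap, the precursor of the saposins that present sphingolipids to hydrolases, had 214 TPM in co-culture and 201 TPM in the control. Gm2a, the activator that presents GM2 to hexosaminidase A, had 28.5 TPM in co-culture and 24.6 TPM in the control. Its ratio of 0.21 was opposite in sign to that of Hexa, but was -0.006 with the TMM scaling. Grn (progranulin, a secreted growth factor that is cut into granulins in lysosomes) had 177 TPM in co-culture and 229 TPM in the control. The Grn ratio of -0.37 was below 0 in every setting, and 12.1% of detected genes had a lower one.

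The order of the members by level was almost the same in both libraries. Spearman's rho of TPM between the libraries was 0.97 over the 40 genes, which describes genes within a pair of libraries and not replicates. Over the detected members the ratio was higher for longer transcripts (rho 0.41, n = 39) and lower for GC-rich ones (rho -0.41), and over all genes with a transcript sequence rho was 0.28 for length and -0.14 for GC content (n = 11246). After trends on length and GC content were removed, the members' median was 0.03 against 0.17 for all genes. With these trends removed 23 of 39 members were higher (59%, against 65.8% of all genes). The 12 detected members with a core had a median of 0.00 (6 higher, 6 lower, range -1.23 to 0.21), and the 24 without had 0.07 (13 higher, 11 lower, range -1.03 to 0.76). The corresponding median over all detected genes with the core was 0.07 (n = 1029, 585 higher, 442 lower). Without the core it was 0.18 (n = 7414, 4867 higher, 2538 lower).

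Other genes of lysosomal biology were read from 6 further lists. Together they held 131 genes, of which 104 were detected, with a median of -0.05. Of the 104 genes 49 had higher (47.1%, against the background of 64.5%) and 55 had lower values. With the TMM scaling 27 were higher and 77 lower, where 47.1% of all detected genes were higher. At least 2-fold higher was 1 gene (background 4.95%) and at least 2-fold lower was none (background 2.14%), a tally that the TMM scaling turned to 0 higher and 3 lower. Xpo1, the exportin that returns TFEB proteins to the cytoplasm among many cargoes, was the gene past the line, with 46.3 TPM in co-culture and 21.9 TPM in the control (ratio 1.04); it was below 2-fold with a pseudocount of 5, with the median ratio and TMM scalings, and with the length and GC trends removed.

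Subunits of the V-ATPase, the proton pump that acidifies lysosomes, were lower in co-culture more often than not. Of 18 detected subunits 15 had lower values, against the background of 35.4%, and their median was -0.18. In every setting with the expression filter their median lay below that of all genes, by 0.28 to 0.37, and at least 13 subunits were lower. The most abundant, Atp6v1f, had 431 TPM in co-culture and 547 TPM in the control. Atp6v0d1, which links the membrane ring to the stalk of the pump, had 32.6 TPM in co-culture and 50.4 TPM in the control, Atp6v1d had 14.4 TPM in co-culture and 21.1 TPM in the control, and Atp6v0b had 82.8 TPM in co-culture and 109 TPM in the control. Atp6v0e2 had the lowest ratio of the list, -0.98, with 1.67 TPM in co-culture and 4.26 TPM in the control. It was past the 2-fold line with a pseudocount of 0.1 and with each of the 3 other scalings.

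Other lysosomal membrane genes were mixed, with 14 of 23 higher (60.9%, near the background of 64.5%) and a median of 0.10, which was -0.02 with the median ratio scaling and -0.12 with the TMM factor. Tpcn1, a lysosomal cation channel like Mcoln1, differed the other way, with 37.1 TPM in co-culture and 19.3 TPM in the control (ratio 0.91). Sidt2, a transmembrane protein linked to nucleic acid uptake, had 50.7 TPM in co-culture and 27.6 TPM in the control. Clcn7, the chloride-proton exchanger, had 8.05 TPM in co-culture and 13.2 TPM in the control, and Tmem192 had 47.6 TPM in co-culture and 72.9 TPM in the control. Laptm4a was the most abundant gene of the list and nearly equal, at 168 TPM in co-culture and 177 TPM in the control.

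Hydrolases outside the 40 genes had 12 of 25 detected genes higher (48%, against the background of 64.5%) and 13 lower, with a median of -0.01. With the TMM scaling 5 were higher and 20 lower (median -0.23), where 47.1% of all detected genes were higher. Acp2 (acid phosphatase) had 9.74 TPM in co-culture and 17.5 TPM in the control. Dpp7, a dipeptidyl peptidase, had 4.21 TPM in co-culture and 7.05 TPM in the control. Ppt2, a thioesterase, differed the other way, with 54.1 TPM in co-culture and 33.3 TPM in the control, and Scpep1, the most abundant of these, had 114 TPM in co-culture and 154 TPM in the control.

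In the mannose 6-phosphate route 10 of 16 detected genes were higher (62.5%, near the background of 64.5%), with a median of 0.11 that was below 0 with the median ratio and TMM scalings. The phosphotransferase that makes the tag is built from products of Gnptab and Gnptg, and these differed in opposite directions. Gnptab, which encodes the alpha and beta subunits, had 9.24 TPM in co-culture and 5.40 TPM in the control, and Gnptg, which encodes the gamma subunit, had 15.9 TPM in co-culture and 28.9 TPM in the control. Igf2r, the large mannose 6-phosphate receptor, had 22.3 TPM in co-culture and 14.0 TPM in the control. Gga2, an adaptor that sorts these receptors, had 11.2 TPM in co-culture and 17.6 TPM in the control, and Vps29, a retromer subunit and the most abundant of the list, had 81.3 TPM in co-culture and 68.7 TPM in the control.

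Regulators of TFEB were mostly close to equal, with 10 of 18 higher (55.6%, against the background of 64.5%) and a median of 0.07 that was below 0 with the median ratio and TMM scalings. Mlst8, a subunit of mTORC1, had 5.55 TPM in co-culture and 9.19 TPM in the control, and Mtor had 12.04 TPM in co-culture and 17.31 TPM in the control. Rptor, also of mTORC1, differed the other way, with 20.7 TPM in co-culture and 14.5 TPM in the control (ratio 0.48). Ppp3cb, a catalytic subunit of calcineurin, the phosphatase that releases TFEB from the cytoplasm, had 36.9 TPM in co-culture and 26.0 TPM in the control. Lamtor2, part of the lysosomal anchor of mTORC1, had 138 TPM in co-culture and 148 TPM in the control. The family member Tfec and the GTPase gene Rragd were listed at 0 in both libraries. Of 10 protease inhibitors 4 were detected and all 4 were lower (background 35.4%), a count that became 2 with the length and GC trends removed; Cst3 (cystatin C) had 391 TPM in co-culture and 433 TPM in the control, Cstb had 331 TPM in co-culture and 365 TPM in the control, Serpinb6a had 219 TPM in co-culture and 230 TPM in the control, and Cst6 had 1.04 TPM in co-culture and 2.16 TPM in the control.

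**Figure D4:**
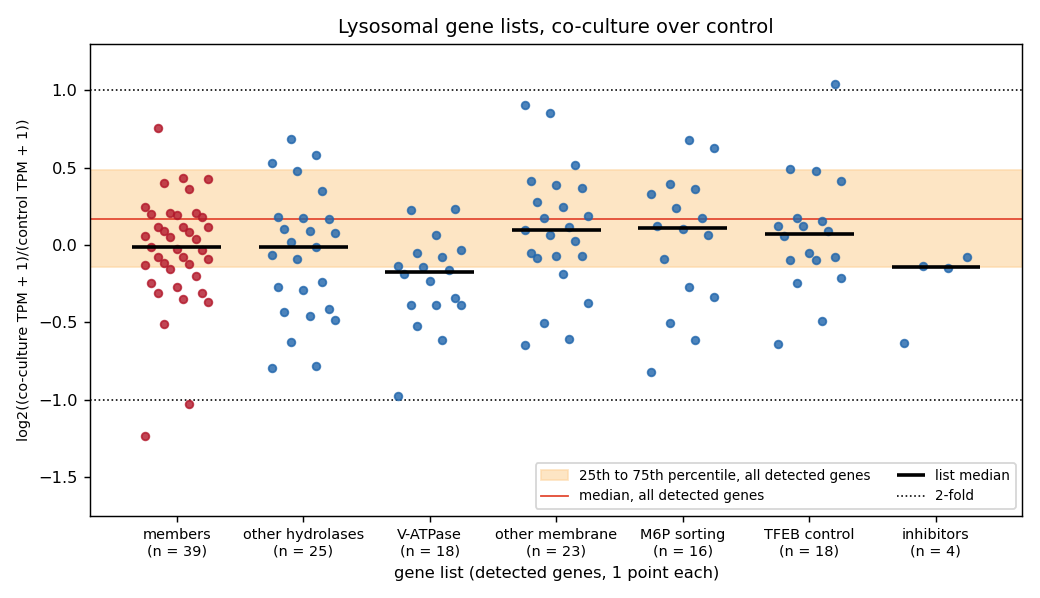
The log2 ratio of co-culture over control TPM (vertical, pseudocount 1) for each detected gene of the 40 members (red) and of 6 further lysosomal lists (blue); black bars are list medians, the red line and band are the median and the 25th to 75th percentile of all detected genes, and dotted lines mark 2-fold. The members' median is -0.01 and that of the V-ATPase is -0.18, both below the median of 0.17 of all genes.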

How the data were processed

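RNA of 4T1 cells was sequenced in 2 libraries, 1 per group, grouped by their treatment labels. The authors deposited 1 table of TPM values, 1 column per library. HISAT2 2.1.0, RSEM 1.2.31 and GRCm38.p5 are named, per the submitters' processing notes, without roles; the sources used here do not give annotation, strandedness, filters or depth. Of 52796 rows, 884 are loci with assembler identifiers, holding 6.47% of the co-culture and 4.38% of the control TPM; they were not used. GENCODE M21 symbols matched 51633 of 51912 Ensembl identifiers. Ratios were log2(TPM + 1) differences, which understate changes of low genes. Detection meant a mean TPM of at least 1. Cores were searched with Python 3.11.15, and trends were fitted with statsmodels 0.14.6.

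The 40 members and all lists were chosen with earlier results of these data known. All members are named. Other lists name up to 4 detected genes with the largest absolute ratio and the most abundant 1, and the marker lists name their detected genes. Tfec, Rragd, Rptor and the named undetected markers were added after their values were seen. A gene that this rule selects is not reported here. Promoters of Tfeb, Tfe3 and Mitf are shown in part. Alternatives were pseudocounts of 0.1 and 5, no filter, a mean TPM of at least 10, a 1.5-fold threshold, the mean, 3 scalings (median ratio, unweighted TMM with trims of 30% and 5%, and without mitochondrial and the 20 most abundant genes), and lowess trends (span 0.3) on length and GC content of the longest transcript, with the median of all genes kept.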

Additional observations from a re-analysis of the deposited data

How the results depend on the processing

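No member was at least 2-fold higher in any setting, and with a 1.5-fold threshold there was 1, Scarb2. With the TMM scaling Scarb2 was also below 1.5-fold, at a ratio of 0.54. The count of members at least 2-fold lower was 2, and 1 (Mcoln1) with a pseudocount of 5 and with the length and GC trends removed; Cd68 was below the line there. With the TMM scaling 7 members were higher (17.9%, against 47.1% of all detected genes), and the members' median was -0.22. With the median ratio scaling the members' median was -0.12. These scalings divide out a shift common to all genes. No setting turned round the sign of a member past the 2-fold line. Of 39 members, 7 were above 0 and 15 below 0 in every setting, and 17 took both signs. No paired analysis was possible because each group had 1 library. With 1 library per group and no depth in TPM, differences as small as most of these cannot be set against any measure of error, and members under 5 TPM (Ctsc, Lipa, Mitf) are the least certain. Reads shared with overlapping genes are also unresolved for 9 members that overlap a detected gene.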
